A study of Mus musculus with 32 samples.

Results

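The meninges, the membranes that wrap the brain, were profiled by RNA-seq in 4 WT mice and 3 untreated 5xFAD mice, a model of Alzheimer's disease. These 7 samples, picked by their tissue and genotype labels, are part of the 32 samples of a study on near-infrared light, meningeal lymphatic vessels (mLVs) and cognition. All were male, 6 months of age and on a C57BL/6J background, and each library held the meninges of 1 mouse. 5xFAD mice carry mutant human transgenes that lead to amyloid deposition, under the regulatory sequence of Thy1, which is active in neurons, and the WT mice were littermates without them. None of these 7 mice received the light, and untreated means without it. By the study's methods, control mice went through the same sessions with indoor lighting in place of the laser. They were anesthetized with isoflurane and their scalp was shaved and cleaned. The methods do not say separately whether the WT mice of these samples had these sessions. The meninges of 3 light-treated 5xFAD mice entered the model only to help estimate the spread. The question was which genes differ in the meninges when the brain beneath develops amyloid plaques, and whether the difference is the one seen in the hippocampus (HPC) of 4 WT and 4 untreated 5xFAD mice of the same study.

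The outer membrane, the dura, holds blood vessels without a blood-brain barrier, lymphatic vessels, fibroblasts and many immune cells, among them macrophages, mast cells, neutrophils and B cells that can arrive from the marrow of the skull. The inner membranes, the arachnoid and pia, hold barrier fibroblasts and border macrophages. Meningeal lymphatic vessels drain fluid, solutes and immune cells from the brain to the cervical lymph nodes. They grow under VEGF-C, which acts on the receptor encoded by Flt4.

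Total counts per sample ran from 6601121 to 14541183, and 17393 to 19749 genes had a count above 0. Levels are given as FPKM, which scales a count by transcript length and library size, in the order of the labels (WT replicates 1, 2, 3 and 4, then 5xFAD replicates 1, 2 and 4). The labelled tissue was checked against markers. The summed level of the 25 fibroblast markers ran from 29440.0 to 35249 in WT and from 27182 to 33578 in 5xFAD mice. Most of this sum was Ptgds and Mgp, which leaned in opposite directions between the groups and are described below. The sum therefore says little about the other markers. Markers of choroid plexus and pineal gland were also present. Ttr, which encodes the thyroid hormone carrier of choroid plexus epithelium, had FPKM values of 15349, 41237, 38074 and 38391 in WT and 32997, 29862 and 25610.4 in 5xFAD mice. Prox1, the transcription factor that defines lymphatic endothelium, stayed between 0.18 and 0.78 in all 7 samples. In these bulk samples fewer cells of a type and less RNA per cell cannot be told apart. The libraries WT replicate 1 and 5xFAD replicate 4 stood apart. WT replicate 1 had a choroid plexus sum of 18403, against 42637 to 45997 in the other WT mice, and the highest neuronal sum, 861. The pineal sum was 594 in 5xFAD replicate 4, against 2067 to 2737 in the other 6 samples, and its sum of mitochondrially encoded genes was the highest at 94569.9. The library kit does not mark strand, so reads of overlapping and antisense genes cannot be told apart, and each library is 1 mouse, so p values measure the spread between mice.

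**Figure D1:**
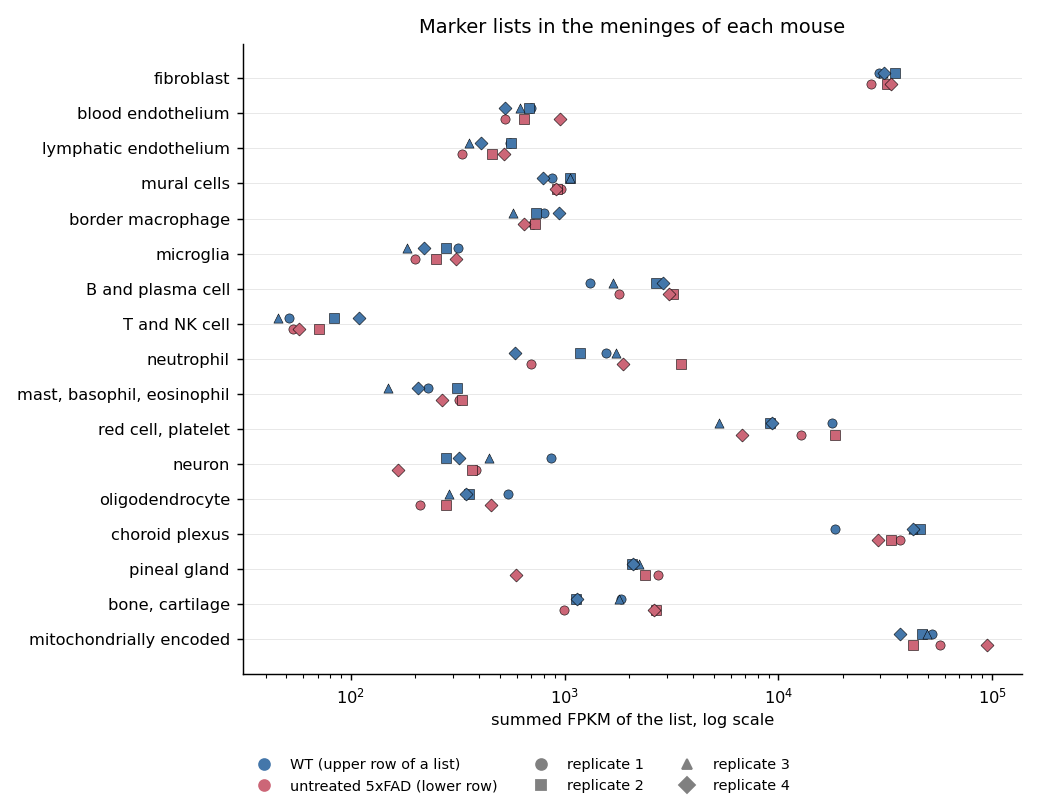
Summed FPKM of 17 marker lists in each mouse on a log axis, with WT mice in blue and untreated 5xFAD mice in red and a marker shape for each replicate number. The groups overlap on most lists, 5xFAD replicate 4 is lowest for pineal gland and neuron and highest for mitochondrially encoded genes, and WT replicate 1 is lowest for choroid plexus.

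In the meninges, none of 13974 tested genes passed the thresholds between untreated 5xFAD and WT mice, which asked for an adjusted p value under 0.05 together with a fold change of 2 or more. That is 0 called (0.0%) by edgeR's quasi-likelihood test, with a smallest adjusted p value of 0.991. At an unadjusted p value below 0.05 there were 551 genes, 292 higher (2.09% of those tested) and 259 lower (1.85%). Normalized counts of the groups did not overlap for 397 higher genes (2.84%) and 340 lower genes (2.43%). DESeq2 called 0 genes over the 10 meninges samples, with 603 at an unadjusted p value below 0.05, and limma on log2(FPKM + 1) called 0, with 534. DESeq2 on the 7 mice alone called 1 gene, a variable gene of the immunoglobulin kappa chain that is described with its family. Of the 13974 genes, 6957 had a log2 fold change above 0 and the median was 0.00. The 95% interval of the fold change lay within 2-fold in both directions for 8484 genes, 60.7% of those tested, so a change of that size was outside the interval for most genes and inside it for the rest. The meninges were more variable between mice than the HPC, with a biological coefficient of variation of 0.344 against 0.196.

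The 20 genes with the smallest unadjusted p values among those whose groups did not overlap did not pass the test, and 19 of them are described next. They comprised 13 higher and 7 lower genes, with log2 fold changes from −2.14 to 1.50. The gene with the smallest p value was Arhgap29 (chromosome 3, 121952541 to 122016753 on GRCm38), which encodes a GTPase-activating protein. Its FPKM was 13.6, 14.3, 10.6 and 12 in WT and 42.4, 20.3 and 25.1 in 5xFAD mice, a log2 fold change of 1.20 (95% interval 0.68 to 1.72). All 3 5xFAD mice lay above all 4 WT mice, and 5xFAD replicate 1 was the highest.

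The higher genes had varied roles. Tlr4 (chromosome 4, 66827584 to 66930284), which encodes the receptor for bacterial lipopolysaccharide, had FPKM values of 1.54, 1.28, 1.92 and 1.20 in WT and 4.05, 2.47 and 3.41 in 5xFAD mice, a log2 fold change of 1.13 (95% interval 0.48 to 1.77). Every 5xFAD mouse was above every WT mouse, the highest being replicate 1. Clec5a, a lectin receptor of myeloid cells, was at 1.06, 1.58, 0.71 and 0.68 against 2.20, 3.41 and 3.76, a log2 fold change of 1.38 (95% interval 0.60 to 2.16). Casp4, an inflammatory caspase that responds to lipopolysaccharide, was at 3.59, 3.39, 3.01 and 3.69 against 4.92, 15.8 and 7.48, a log2 fold change of 1.44 (95% interval 0.60 to 2.28). The WT values of Casp4 were close together, and the 5xFAD values were spread, with replicate 2 far above the others. Tnfsf10, which encodes the death ligand TRAIL, was at 0.65, 3.44, 1.16 and 1.72 against 2.59, 3.18 and 4.48, and here the FPKM values overlapped although the normalized counts did not, since WT replicate 2 lay inside the range of the 5xFAD mice. Klhl6, a gene of B lymphocyte signaling, was at 2.93, 3.46, 2.73 and 1.97 against 6.68, 5.66 and 6.14, with tight groups and a log2 fold change of 1.15 (95% interval 0.59 to 1.71). Serpina3g encodes a serine protease inhibitor from a cluster of similar genes among which reads can be shared. It was at 12.4, 6.58, 4.72 and 6.07 against 14.2, 38.4 and 11.6, and WT replicate 1 fell inside the 5xFAD range in FPKM.

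Of the other higher genes, Ism1, which encodes the secreted protein isthmin, was at 5.83, 6.52, 7.79 and 6.00 in WT and 21.2, 15.4 and 9.18 in 5xFAD mice, a log2 fold change of 1.23 (95% interval 0.60 to 1.87). Mkx, a homeobox gene of tendon fibroblasts, was at 2.01, 1.89, 1.64 and 1.82 against 3.81, 2.86 and 4.37, and the WT values were within a narrow band below all 5xFAD values. Cyyr1, Zfp943 and the noncoding gene Platr25 had log2 fold changes of 1.10, 0.99 and 0.97.

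Among the 7 lower genes, Cldn3 (chromosome 5, 134986214 to 134987472) encodes a claudin, a strand protein of tight junctions. Its FPKM was 13.6, 15.7, 15.3 and 12.5 in WT and 6.19, 7.83 and 6.86 in 5xFAD mice, a log2 fold change of −1.02 (95% interval −1.56 to −0.48). The groups were each tight and wide apart. Sytl1, whose product helps secretory vesicles dock, was at 4.61, 2.42, 3.23 and 3.94 against 0.44, 0.78 and 1.13, a log2 fold change, the lowest of the 20, of −2.14 (95% interval −3.29 to −0.99). Sytl1 passed the filter on low values through the WT mice and 5xFAD replicate 4, so mainly through the group where it was high. Ppp1r1b, which encodes the phosphatase inhibitor DARPP-32, was at 106, 219, 227 and 179.6 against 97.4, 109 and 70.6. Its FPKM in WT replicate 1 lay within the range of the 5xFAD mice, and this library also had the lowest choroid plexus sum. Nrn1l was at 42.5, 32.1, 39.6 and 55.5 against 13, 23.1 and 11.4, and Sult1c2, a sulfotransferase gene, at 1.79, 3.06, 2.72 and 2.70 against 0.47, 0.87 and 0.82. For Nrn1l the lowest WT mouse was above the highest 5xFAD mouse. Sult1c2 was below an FPKM of 1 in all 5xFAD mice and passed the filter on low values only through the WT mice, so its groups had to differ. Vat1l and the sugar phosphate transporter gene Slc37a1 had log2 fold changes of −1.03 and −1.36. When single mice were left out and under every other alternative run, all 20 genes kept the sign of their log2 fold change and none was called. The genes were picked because their groups did not overlap, so leaving out a mouse could hardly change a sign. The kept signs are therefore not support for a difference.

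**Figure D2:**
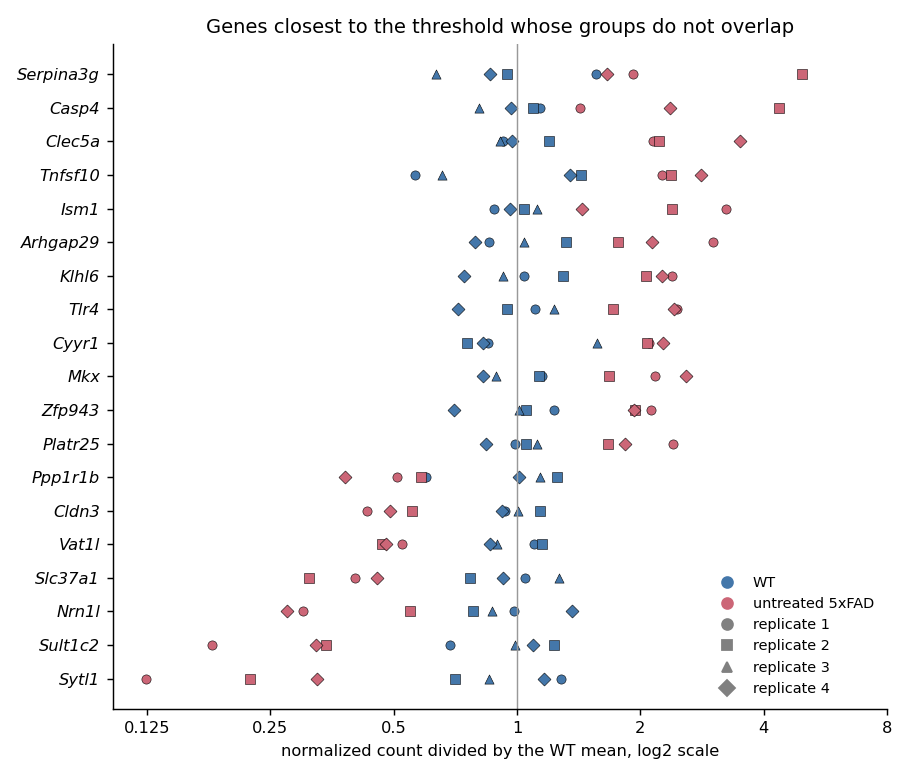
Normalized counts of 19 of the 20 genes in each mouse, divided by the mean of the WT mice, on a log2 axis, with WT mice in blue, untreated 5xFAD mice in red and a marker shape for each replicate number. The 5xFAD mice lie to the right of the WT mice for the upper 12 genes and to the left for the lower 7 genes.

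The lymphatic and VEGF genes were the ones the study was built around. Of 17 lymphatic endothelial markers, 14 passed the filter on low values and 0 were called, and their median log2 fold change was 0.04, where that of all genes was 0.00. Lyve1, a hyaluronan receptor of lymphatic endothelium and of some macrophages, had FPKM values of 9.71, 5.64, 4.99 and 4.18 in WT and 8.38, 6.05 and 4.17 in 5xFAD mice, a log2 fold change of 0.02 (95% interval −0.70 to 0.74). The groups overlapped throughout. Ccl21a, one of several near-identical copies of the chemokine gene with which lymphatic vessels draw in dendritic and T cells, whose reads can be shared, was at 113, 169.8, 90.0 and 84.7 against 52.3, 77.5 and 88.3, a log2 fold change of −0.65 (95% interval −1.46 to 0.16). The lowest 2 values were those of 5xFAD mice, and the third 5xFAD mouse lay inside the WT range. The connexin gene Gja4 and the integrin gene Itga9 had log2 fold changes of −0.82 and 0.59, and Pdpn, which encodes podoplanin, of −0.01. The median of the list was −0.16 without 5xFAD replicate 4 and 0.32 without WT replicate 1.

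Of 24 genes of the VEGF and angiopoietin pathways, 23 were tested and 0 were called. In all, 18 had a log2 fold change above 0 and the median was 0.32. The ligand gene Vegfc was at 3.37, 2.24, 2.36 and 2.32 in WT and 2.44, 1.67 and 6.72 in 5xFAD mice, a log2 fold change of 0.45 (95% interval −0.51 to 1.40). Its highest value was that of 5xFAD replicate 4, its lowest that of 5xFAD replicate 2. Its receptor Flt4 was at 1.36, 1.58, 1.09 and 1.05 against 0.53, 1.17 and 3.00, with the extremes on both sides again in the 5xFAD group. Without 5xFAD replicate 4 the log2 fold change was −0.49 for Vegfc and −0.57 for Flt4. The angiopoietin receptor Tek was at 4.63, 4.14, 4.04 and 3.00 against 4.56, 3.78 and 11.9, and the VEGF receptor Kdr at 4.56, 3.96, 8.84 and 6.94 against 8.42, 6.57 and 13.7. Both were highest in 5xFAD replicate 4. Calcrl, the receptor subunit for adrenomedullin, had the smallest p value of the list, with a log2 fold change of 0.77 (95% interval 0.09 to 1.45). Of the signaling genes, the adaptor gene Nck1 was at 20.6, 34.9, 18.1 and 9.98 against 31.5, 28.4 and 30.9, with WT replicate 2 above all 5xFAD mice and a log2 fold change of 0.58 (95% interval 0.03 to 1.13). Nckap1l, a subunit of the WAVE actin regulator in blood cells, had a log2 fold change of 0.13, the calmodulin gene Calm2 of −0.18 and the GTPase gene Cdc42 of 0.05. The list's lean rested on 1 library: without 5xFAD replicate 4 its median was 0.02, with 12 genes above and 11 below 0.

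The markers of blood vessels also leaned higher through that mouse. Of 27 listed genes, 26 were tested, 0 were called and 20 had a log2 fold change above 0, with a median of 0.27. Pecam1, an adhesion molecule of endothelial cells, was at 18.1, 14.4, 17.1 and 7.09 in WT and 14.9, 11.1 and 32.7 in 5xFAD mice. Emcn, which encodes the sialomucin of capillaries and veins, was at 44.1, 47.3, 49.5 and 28.7 against 55, 39.5 and 103. For both genes 5xFAD replicate 4 was well above the rest, which overlapped. Without that mouse the median over the list was −0.05 and the log2 fold change of Pecam1 was −0.09. The 18 pericyte and smooth muscle genes had a median of 0.12 and 0 calls.

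Of 23 genes of tight and adherens junctions, 18 were tested and 0 were called, with a median log2 fold change of 0.04 that was −0.22 without 5xFAD replicate 4. Beside Cldn3, the scaffold gene Tjp3 did not overlap, at 3.20, 4.67, 7.01 and 3.29 in WT and 1.11, 2.26 and 2.01 in 5xFAD mice, a log2 fold change of −0.96 (95% interval −1.72 to −0.19). In the opposite direction, Ctnnb1, which encodes beta-catenin, was at 57.8, 69.7, 88 and 71 against 96.9, 82.6 and 114, where WT replicate 3 lay above 5xFAD replicate 2 in FPKM. The scaffold gene Tjp1 had a log2 fold change of 0.42. Ocln, which encodes occludin, was at 5.37, 5.71, 3.23 and 2.40 against 1.89, 4.16 and 4.57, a log2 fold change of −0.04 (95% interval −0.70 to 0.61), with the groups overlapping. The study names Ocln, protocadherin genes and Hapln2 for light-treated against untreated 5xFAD meninges, a different comparison. Of these protocadherin genes, Pcdhgb6 was tested here. Its log2 fold change was −0.48 (95% interval −1.54 to 0.59), and 0.06 without WT replicate 1. Pcdhgb5, Pcdhgb7 and Pcdhga8, like Hapln2, did not pass the filter on low values.

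**Figure D3:**
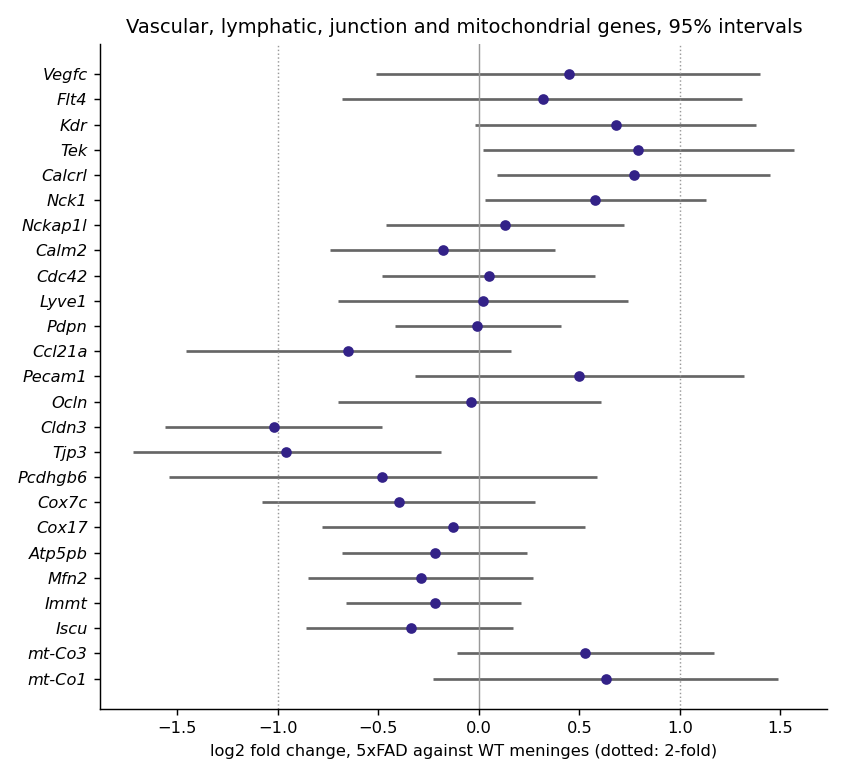
Log2 fold change of 25 genes in untreated 5xFAD against WT meninges (points) with 95% intervals from the edgeR fit (bars), and dotted lines at a 2-fold change. The intervals of Cldn3, Tjp3, Calcrl, Nck1 and Tek lie to 1 side of 0 without adjustment over genes, and 0 of the 25 genes were called.

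Fibroblast genes were among the most abundant transcripts. Ptgds, the prostaglandin D synthase gene of arachnoid fibroblasts and oligodendrocytes, was at 14404, 17567, 20262 and 18616 in WT and 6858, 13785 and 12334 in 5xFAD mice, a log2 fold change of −0.67 (95% interval −1.34 to −0.01). Every 5xFAD mouse lay below every WT mouse, and replicate 1 was far the lowest. Mgp, the matrix Gla protein gene that restrains calcification, showed the reverse, at 11078, 13422, 7571 and 8841 against 16835, 14372 and 16023, a log2 fold change of 0.62 (95% interval −0.01 to 1.25). Of the 25 fibroblast genes tested, 17 were above 0 with a median log2 fold change of 0.22, and 0 were called. The peptidase gene Dpp4 and the growth factor receptor gene Pdgfra had log2 fold changes of 0.51 and 0.42. Among 22 collagen chain genes, 17 were above 0 with a median of 0.18 and 0 called. Col6a3 was at 7.38, 4.02, 6.21 and 5.37 against 7.54, 9.72 and 12.5, with WT replicate 1 just under the lowest 5xFAD mouse, and Col12a1 had a log2 fold change of 0.60 (95% interval 0.08 to 1.12). Both leans rested on 1 library. Without 5xFAD replicate 4 the fibroblast list had 13 genes above and 12 below 0 with a median of 0.02, and the collagen list had 11 above and 11 below 0 with a median of 0.00.

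Bone and developmental signaling genes varied between the mice. Of 22 bone and cartilage genes, 15 were tested, with a median log2 fold change of 0.45 and 0 called. Ibsp, which encodes a sialoprotein of bone matrix, was at 49.2, 19, 32.4 and 24.4 in WT and 25.6, 106 and 70.0 in 5xFAD mice, and Spp1, the osteopontin gene, at 960.5, 476, 376 and 189.6 against 348, 1486 and 1301. For both, 5xFAD replicates 2 and 4 were above all WT mice and replicate 1 was inside their range. The osteoclast phosphatase gene Acp5 was highest in 5xFAD replicate 2, at 44.9, 263 and 121 in the 3 5xFAD mice against 118, 62.4, 103 and 51 in WT mice. Of 38 genes of TGF-beta, BMP and WNT signaling, 36 were tested, 26 were above 0 with a median of 0.27, and 0 were called. Wif1, a secreted WNT inhibitor, was at 1.53, 0.47, 0.47 and 0.59 against 1.24, 1.70 and 5.08, and WT replicate 1 lay among the 5xFAD mice. Wif1 passed the filter on low values through the 5xFAD mice and WT replicate 1, so mainly through the group where it was high. The ligand gene Wnt6 was at 14.9, 16.1, 8.46 and 7.63 against 2.63, 7.59 and 6.64, with WT replicate 4 just above the highest 5xFAD mouse. Smad7, an inhibitor of TGF-beta signaling, and the WNT inhibitor gene Dkk2 had log2 fold changes of 0.61 and 1.01. Without 5xFAD replicate 4 the median of the signaling list was 0.07, with 21 genes above 0, and without 5xFAD replicate 2 that of the bone list was 0.21.

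The macrophages of the brain borders are the resident myeloid cells of this tissue. Of 21 border macrophage genes, 20 were tested, 11 were above and 9 below 0, with a median log2 fold change of 0.02 and 0 called. Ccr2, the chemokine receptor of monocytes and their recent descendants, had the smallest p value, at 3.53, 5.42, 3.03 and 2.67 in WT and 5.99, 6.41 and 9.54 in 5xFAD mice, a log2 fold change of 0.97 (95% interval 0.40 to 1.54). All 5xFAD mice were above all WT mice. Mrc1, the mannose receptor of resident border macrophages, was at 14.8, 9.66, 12.6 and 11.9 against 19, 13.4 and 15, a log2 fold change of 0.38. The reductase gene Cbr2 and the lipopolysaccharide co-receptor gene Cd14 had log2 fold changes of −0.55 and −0.75.

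Complement genes had a median log2 fold change of 0.15 over 20 tested of 26 listed, and 0 were called. Without 5xFAD replicate 4 the median was −0.03, with 10 genes above and 10 below 0. C3ar1 encodes the receptor for the C3a fragment on myeloid cells. Its FPKM was 3.15, 3.74, 3.13 and 1.85 in WT and 4.57, 5.90 and 5.50 in 5xFAD mice, a log2 fold change of 0.85 (95% interval 0.31 to 1.40), with no overlap between the groups. The C5a receptor gene C5ar2 and factor B, Cfb, had log2 fold changes of 0.79 and 0.63, and Cfb was highest in 5xFAD replicate 4, at 12.2, 16.7 and 33 in the 5xFAD against 12.2, 13.3, 10.8 and 15.2 in the WT mice. Of 41 chemokine and cytokine genes, 35 were tested, 17 above and 18 below 0, with 0 called. The alarmin gene Il33 was at 42, 26.3, 15.4 and 23.5 against 45.8, 35.4 and 43.6, with WT replicate 1 inside the 5xFAD range. The T cell chemokine gene Ccl5 was at 17.9, 43.9, 18.3 and 80.0 against 14.9, 23.8 and 19.6, and its spread was widest among WT mice. Interferon-stimulated genes, which are taken up again with the HPC, had a median of −0.05 over 28 tested genes, with 11 above and 17 below 0 and 0 called. The median was 0.11 without 5xFAD replicate 1 and −0.32 without 5xFAD replicate 4. The lowest p value was that of the RNA sensor gene Oas2, at 1.03, 0.58, 0.97 and 0.44 against 1.38, 2.09 and 1.01, where WT replicate 1 lay just above the lowest 5xFAD mouse in FPKM. Oas2 passed the filter on low values through the 5xFAD mice and WT replicate 1, so mainly through the group where it was high. The ubiquitin ligase gene Trim30a and the chemokine gene Cxcl9 had log2 fold changes of 0.57 and −1.01.

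Lymphocyte genes did not separate the groups. Of 29 T and NK cell genes, 17 were tested and 0 were called, with 13 below 0 and a median log2 fold change of −0.23. Without WT replicate 2 the median was 0.01 and 8 genes were below 0, and without WT replicate 4 it was −0.04 and 9 were. The kinase gene Lck was at 2.07, 5.08, 2.02 and 5.05 in WT and 2.37, 1.56 and 2.66 in 5xFAD mice, and its 2 high values were those of WT replicates 2 and 4. The granzyme gene Gzma, the T cell co-receptor gene Cd8b1 and the IL-7 receptor gene Il7r had log2 fold changes of −1.22, −1.18 and 0.85. Of 27 B and plasma cell genes, 21 were tested, with a median of 0.22, or 0.10 without WT replicate 3, and 0 called. The antibody light chain gene Igkc was at 726, 1919, 1165 and 2102 against 1386, 2369 and 2194, and Jchain, which joins IgA and IgM molecules, at 78.5, 164, 170.0 and 139 against 125, 247 and 198. Both overlapped. Ighm, the heavy chain gene of IgM, had a log2 fold change of 0.03. The lambda constant gene Iglc2 was at 13.2, 25.2, 19.3 and 28.8 against 23.1, 39.3 and 87.9, with 5xFAD replicate 4 highest.

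Immunoglobulin variable genes varied widely between single mice. Each plasma cell clone uses 1 heavy and 1 light variable gene, so the genes in use differ between animals. The table holds 218 of these genes, of which 112 were tested. Of the 112, 45 (40.2%) changed in value at least 2-fold in either direction, against 3.91% of all tested genes, with 62 above and 50 below 0. The median standard error was 1.05, against 0.30 over all tested genes. Their summed FPKM was 613, 1298, 469 and 906 in WT and 694, 1259 and 1399 in 5xFAD mice, and these ranges overlapped. A single gene made up 11.7% to 27.2% of the sum in each mouse. This top gene was Iglv1 in WT replicates 1, 2 and 3 and in 5xFAD replicate 2, Igkv3-4 in replicate 4 of both groups, and the kappa gene that DESeq2 called (ENSMUSG00000096833, chromosome 6, 69607275 to 69607828) in 5xFAD replicate 1. The FPKM of this gene was 5.96, 11.5, 5.36 and 10.1 in WT and 186, 44.4 and 30.9 in 5xFAD mice, a log2 fold change of 3.39 (95% interval 1.19 to 5.58) by edgeR. All 5xFAD mice were above all WT mice, and the 5xFAD values spread widely. Another kappa gene (ENSMUSG00000076569) separated the groups in the other direction, at 4.7, 3.07, 4.88 and 36.6 in WT and 0.43, 0.79 and 0 in 5xFAD mice. Its log2 fold change was −4.77 (95% interval −7.77 to −1.77). That gene passed the filter on low values only through the WT mice, so its groups had to differ. Reads of these similar genes can be shared among them.

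Granulocyte genes leaned higher in 5xFAD mice without passing the test. Of 24 neutrophil genes, 22 were tested, 20 were above 0 with a median log2 fold change of 0.70, and 0 were called. S100a8, a calcium-binding protein gene that neutrophils express strongly, was at 685, 588, 811 and 292 in WT and 338, 1669.7 and 911 in 5xFAD mice. Replicates 2 and 4 of the 5xFAD mice were above all WT mice and replicate 1 was inside their range. Fpr2, a receptor for formyl peptides, was at 1.50, 2.19, 2.74 and 0.85 against 5.66, 3.06 and 5.26, without overlap. The granule genes Ctsg and Prtn3 were at 1.36, 13.7 and 3.51 and at 1.57, 12.6 and 5.86 in the 5xFAD mice, and at 2.18, 0.62, 2.13 and 0 and at 4.13, 2.57, 2.92 and 0.98 in the WT mice. For both, 5xFAD replicate 2 was above all others and replicate 1 was inside the WT range. Mmp9, the gelatinase gene, had a log2 fold change of 0.63, and of −0.11 without 5xFAD replicate 2. Without 5xFAD replicate 2 the median over the list was 0.04, with 13 genes above and 9 below 0. The bone and cartilage sum was also high in 5xFAD replicates 2 and 4, at 2673 and 2614 against 1132 to 1842 in WT mice, and its part in the neutrophil values was not tested.

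Of 18 genes of mast cells, basophils and eosinophils, 13 were tested and 12 were above 0, with a median log2 fold change of 0.46 and 0 called. The mast cell tryptase gene Tpsb2 was at 60.6, 99.3, 38.9 and 56.7 in WT and 92.6, 90.1 and 82.2 in 5xFAD mice, the chymase gene Mcpt4 at 48.7, 63.3, 30.3 and 50.6 against 79.3, 71.7 and 51.2, and the carboxypeptidase gene Cpa3 at 22.4, 22.5, 4.50 and 10.4 against 28.5, 26.1 and 20.2. For these genes at least 1 WT mouse lay within or above the 5xFAD values. Hdc, which makes histamine, was the exception, at 13, 5.85, 7.41 and 5.71 against 4.29, 5.19 and 4.83, a log2 fold change of −0.73 (95% interval −1.39 to −0.07), with every 5xFAD mouse below every WT mouse. The basophil protease gene Prss34 had a log2 fold change of 2.01 (95% interval −0.15 to 4.17). With each mouse left out, the median of the list stayed between 0.29 and 0.78.

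The mitochondrial genes split by genome. All 13 protein-coding genes of the mitochondrial genome were tested and were above 0, with a median log2 fold change of 0.47 and 0 called, while 76 of 79 nuclear genes that encode respiratory complexes were below 0, with a median of −0.19 and 0 called. mt-Co1, a catalytic subunit of cytochrome oxidase, was at 5998, 4331, 5563 and 2327 in WT and 5178, 3913 and 11604 in 5xFAD mice. The value of 5xFAD replicate 4 was far above the rest, which overlapped. The nuclear complex I gene Ndufs3 was at 143, 172, 139.7 and 138 against 115, 131 and 82.9, and every 5xFAD mouse was below every WT mouse, replicate 4 the lowest. The nuclear genes Uqcrfs1 and Ndufa10 had log2 fold changes of −0.41 and −0.35, and mt-Co3 and mt-Nd4 of 0.53 and 0.62. The study names several such genes as higher in light-treated than in untreated 5xFAD meninges, a different comparison from the one made here. Of these, Cox7c, Cox17 and Atp5pb had log2 fold changes of −0.40, −0.13 and −0.22 in untreated 5xFAD against WT mice. The mitochondrial fusion gene Mfn2, the cristae gene Immt and the iron-sulfur scaffold gene Iscu had values of −0.29, −0.22 and −0.34. Without 5xFAD replicate 4 the medians were 0.10 for the mitochondrial genome, 12 of whose 13 genes were then above 0, and −0.04 for the nuclear genes, 47 of which were then below 0. TCA cycle and fatty acid oxidation genes had a median of −0.22 over 29 tested genes, between −0.28 and −0.11 with each mouse left out, and 0 called.

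Genes of the nervous system were present at low levels, and their part in a sample differed between mice. Of 18 neuronal genes, 17 were tested, 16 were below 0 with a median log2 fold change of −0.64, and 0 were called. The synaptic vesicle gene Syn1 was at 29.2, 7.51, 8.48 and 9.07 in WT and 7.39, 5.79 and 2.80 in 5xFAD mice, and the neuronal tubulin gene Tubb3 at 74.1, 33.7, 49.2 and 32.8 against 31, 34.8 and 10.6. WT replicate 1 had by far the highest values of both, and 5xFAD replicate 4 the lowest. Uchl1 and the glutamate receptor gene Gria2 had log2 fold changes of −0.81 and −1.25. Without WT replicate 1 the median of the list was −0.03. Oligodendrocyte and Schwann cell genes each had a median of −0.53, over 13 and 11 tested genes, with 0 called. With each mouse left out these medians ran from −0.94 to −0.21 and from −1.19 to −0.13, both lowest without 5xFAD replicate 4. Choroid plexus genes had a median of −0.16 over 20 tested genes and pineal genes of −0.14 over 19, with 0 called in both, and without 5xFAD replicate 4 the pineal median was 0.31. Among 15 astrocyte genes the median was 0.02 and 0 were called, and the folate enzyme gene Aldh1l1 was at 10.2, 8.77, 7.94 and 6.49 against 5.07, 4.09 and 5.76, without overlap.

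The remaining lists had 0 called genes as well. Median log2 fold changes were −0.19 for 22 glucocorticoid-responsive genes, −0.15 for 22 clock genes, −0.08 for 27 immediate early genes and −0.10 for 20 heat shock genes. They were −0.23 for 27 antioxidant genes, −0.04 for 76 ribosomal protein genes, −0.02 for 35 DNA repair genes and 0.22 for 29 genes of proliferation. Red cell and platelet genes had a median of 0.26 over 15 tested genes, skeletal muscle genes of 0.32 over 12 and fat cell genes of −0.35 over 3. Several of these medians rested on 1 mouse. Without 5xFAD replicate 1 that of the muscle genes was −0.49, with 3 above and 9 below 0, that of the glucocorticoid-responsive genes 0.10 and that of the immediate early genes 0.22, which was also its value without WT replicate 4. The red cell and platelet median was −0.06 without 5xFAD replicate 2, with 6 above and 9 below 0, and the proliferation median was 0.07 without WT replicate 3.

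The genes tied to the transgenes did not pass the test in the meninges. Thy1, whose regulatory sequence drives the transgenes, was at 21.3, 10.6, 15.6 and 15 in WT and 18.9, 18.7 and 23.9 in 5xFAD meninges, a log2 fold change of 0.37 (95% interval −0.15 to 0.89), and the groups overlapped. In HPC it was at 181 ± 8.13 (SD, n = 4) in WT and 510.2 ± 104 (SD, n = 4) in 5xFAD mice, where it rose with a log2 fold change of 1.52. The effect of the genotype on Thy1 was lower in meninges than in HPC, a difference of −1.17 (standard error 0.27, adjusted p = 0.0196). The genotype labels of the meninges samples were therefore not checked by this gene. The mouse gene App had a log2 fold change of 0.13 in meninges. None of the 15 genes of amyloid production and clearance was called there.

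The meninges were next compared with the HPC. The test asked, gene by gene, whether the 5xFAD effect in meninges differed from that in HPC (values are given as meninges minus HPC on the log2 scale), over 11938 genes tested in both tissues and 22 samples. The effect was lower in meninges for 231 genes (1.93%) and higher for 6 (0.0503%), at an adjusted p value below 0.05 and a difference of at least 2-fold. In HPC itself 531 of 12772 tested genes rose in 5xFAD mice (4.16%) and 7 fell (0.0548%). Of the 231 genes, 202 were among those that rose in HPC, and the values of the 231 in meninges were spread around 0, with 94 above, 137 below and a median log2 fold change of −0.06. Low values in meninges helped to pick these genes, which draws that median down. Among all genes tested in meninges, 6957 were above and 7017 below 0. Of the 531 genes, 503 were tested there, with 323 above and 180 below 0. Their median log2 fold change was 0.10 in meninges and 1.67 in HPC, where it was high because the genes were picked by their rise there. Of the 503, 12 were at least 2-fold higher in meninges. For 334 (66.4%) the 95% interval in meninges ended below a 2-fold rise, against 77.1% of all tested genes. The fibroblast list moved with genotype in the HPC samples too. Its summed FPKM was 535 to 1093 in WT and 1447 to 3113 in 5xFAD HPC, 8 of its 17 tested genes rose there, and its part in the difference was not tested. The main test used a shared spread for both tissues. Its biological coefficient of variation was 0.243, against 0.344 in meninges and 0.196 in HPC fitted alone, so the wider spread in meninges was not modeled apart. With each tissue given a spread of its own in limma-voom, chosen after the data were seen, 127 genes were lower and 1 was higher. Whether the HPC and meninges samples came from the same mice is not stated in the sources used here.

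Microglia that gather around amyloid plaques take up a known program of lysosomal, lipid and phagocytic genes. Of 22 listed genes, 16 rose in HPC. In meninges 10 of 21 had a lower effect (6 without 5xFAD meninges replicate 1), 0 were called and the median was 0.14. Cst7, a cathepsin inhibitor, had an FPKM of 2.08, 3.37, 0.87 and 3.46 in WT and 2.76, 4.22 and 4.38 in 5xFAD meninges. In HPC it ran from 0.38 to 0.78 in WT and from 125 to 271 in 5xFAD mice. The log2 fold change was 0.63 (95% interval −0.57 to 1.83) in meninges and 8.28 in HPC, a difference of −7.62 (standard error 0.68, adjusted p = 1.97e-06). Clec7a, the beta-glucan receptor dectin-1, was at 3.03, 5.02, 4.63 and 5.48 in WT and 2.42, 3.34 and 8.12 in 5xFAD meninges, a log2 fold change of 0.41 (95% interval −0.46 to 1.28), with a difference from HPC of −6.53 (standard error 0.59, adjusted p = 1.97e-06). Trem2, the lipid receptor that microglia need for this program, was at 24.1, 33.5, 21.5 and 22.9 against 17.7, 20.4 and 24.9 in meninges, where the groups overlapped, a log2 fold change of −0.28 (95% interval −0.88 to 0.32). Its difference from HPC was −3.34 (standard error 0.41, adjusted p = 0.000157). Its level in WT mice was 25.5 ± 5.44 (SD, n = 4) in meninges and 23.8 ± 3.09 (SD, n = 4) in HPC. Tyrobp, the adaptor of Trem2, was at 329.5 ± 95.5 (SD, n = 4) in WT and 373 ± 52 (SD, n = 3) in 5xFAD meninges, with a difference of −2.67 (standard error 0.45, adjusted p = 0.00177). The lysosomal protease gene Ctsd had a log2 fold change of 0.04 (95% interval −0.45 to 0.52) in meninges and a difference of −2.21 (standard error 0.31, adjusted p = 0.000466).

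**Figure D4:**
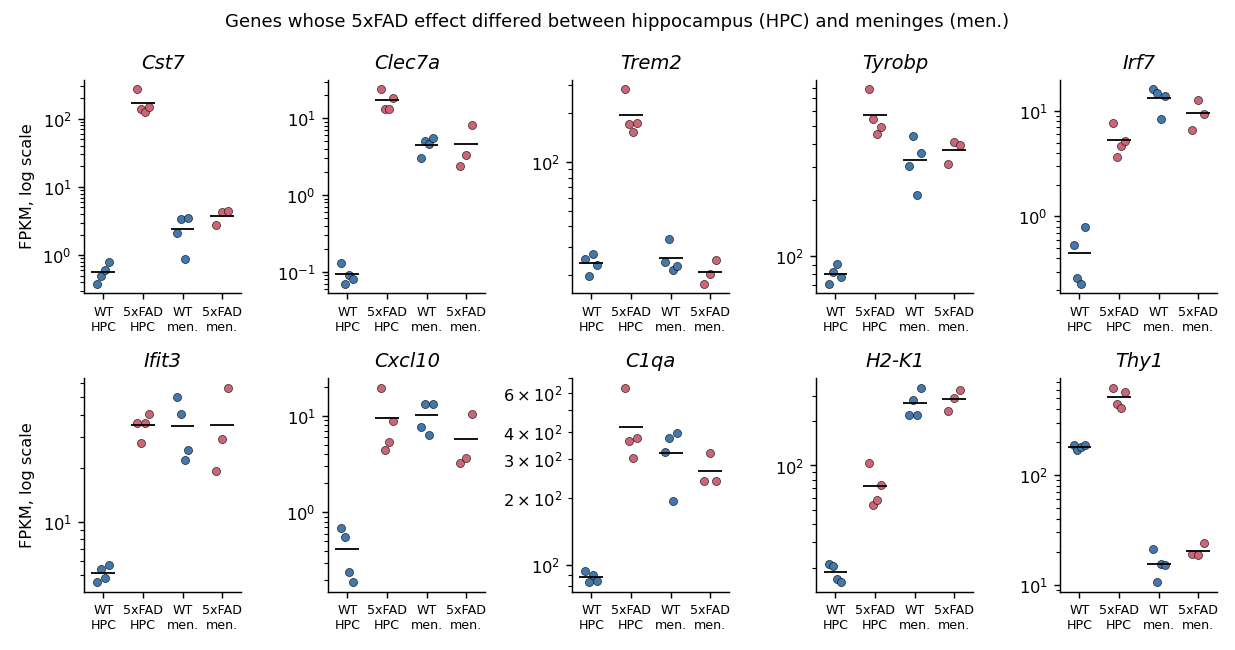
FPKM on a log axis of 10 genes in each sample (points) with group means (lines) in HPC of 4 WT and 4 untreated 5xFAD mice and in meninges of 4 WT and 3 untreated 5xFAD mice. In HPC the 5xFAD samples lie above the WT samples for all 10 genes, and in meninges the groups overlap for all 10.

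Interferon-stimulated genes had the most differences of the 42 lists. Interferons are antiviral cytokines, and their target genes also rise in glia of diseased brain. Of 28 listed genes, 23 were tested in both tissues and 20 of these rose in HPC. The effect was lower in meninges for 19 (15 to 21 with each meninges mouse left out). Medians were −0.02 in meninges and 2.76 in HPC. For the 20 that rose in HPC, the 95% interval in meninges ended below the HPC estimate in all 20. These 20 were picked by their high HPC estimates, whose error was not counted. That comparison is therefore not a test of the difference. Irf7, the regulator of interferon production, was at 16, 14.8, 8.44 and 13.8 in WT and 6.60, 12.7 and 9.39 in 5xFAD meninges, a log2 fold change of −0.35 (95% interval −1.13 to 0.44) and a difference from HPC of −3.88 (standard error 0.57, adjusted p = 0.000698). Ifit3, an antiviral RNA-binding protein gene, was at 50.1, 40.6, 22.2 and 25.2 against 19.3, 29.1 and 56.7, a log2 fold change of 0.03 (95% interval −0.78 to 0.84) and a difference of −2.76 (standard error 0.46, adjusted p = 0.00164). In both genes the groups overlapped in meninges. Cxcl10, the chemokine that draws in T cells, was at 7.65, 13.4, 6.35 and 13.1 against 3.28, 3.67 and 10.3, with the 2 lowest values in 5xFAD mice and a difference of −5.24 (standard error 0.78, adjusted p = 0.000698). Oasl2, Bst2, Ifit1 and Ifi27l2a had differences of −3.40, −3.06, −3.04 and −4.43 on the log2 scale. These genes had higher levels in WT meninges than in WT HPC. Ifitm3, a restriction factor at the cell membrane, was at 663 ± 198 (SD, n = 4) in WT meninges, against 17.5 ± 3.87 (SD, n = 4) in WT and 107 ± 35.6 (SD, n = 4) in 5xFAD HPC. The mean of the WT meninges lay above that of the WT HPC for all 23 genes and above that of the 5xFAD HPC for 19 of 23.

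The promoters of 4 of these genes are shown because the genes share the direction of the difference and a letter motif. The motif, GAAA followed by any 2 bases and GAAA again, the core of the element that interferon-activated factors bind, was searched on both strands in the 250 bases before the RefSeq transcription start (GRCm38.p6). It occurred in 936 of 27025 genes with a window (3.46%). Of the matched interferon genes it occurred in 11 of the 19 on the whole list and in 9 of the 13 whose effect was lower in meninges. These genes were listed as interferon targets, so a share above that of all genes says nothing about the difference between the tissues. The 4 genes are those with the smallest adjusted p for the difference that hold the motif. Each line gives 30 bases on both sides of the match nearest to the start, 5′ to 3′ on the strand of the gene, with the match in capitals. The windows are chr8:71537557-71537626 on the minus strand for Bst2, chr5:92349063-92349132 on the minus strand for Cxcl10, chr19:34640774-34640843 on the plus strand for Ifit1 and chr19:34583377-34583446 on the plus strand for Ifit3.
Bst2: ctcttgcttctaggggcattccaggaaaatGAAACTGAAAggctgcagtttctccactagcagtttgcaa
Cxcl10: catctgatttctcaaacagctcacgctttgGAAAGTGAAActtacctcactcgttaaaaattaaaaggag
Ifit1: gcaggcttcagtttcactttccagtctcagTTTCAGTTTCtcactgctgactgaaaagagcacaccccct
Ifit3: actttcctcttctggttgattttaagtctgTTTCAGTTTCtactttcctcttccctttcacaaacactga
A match is a description of these letters, not of a bound factor.

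**Figure D5:**
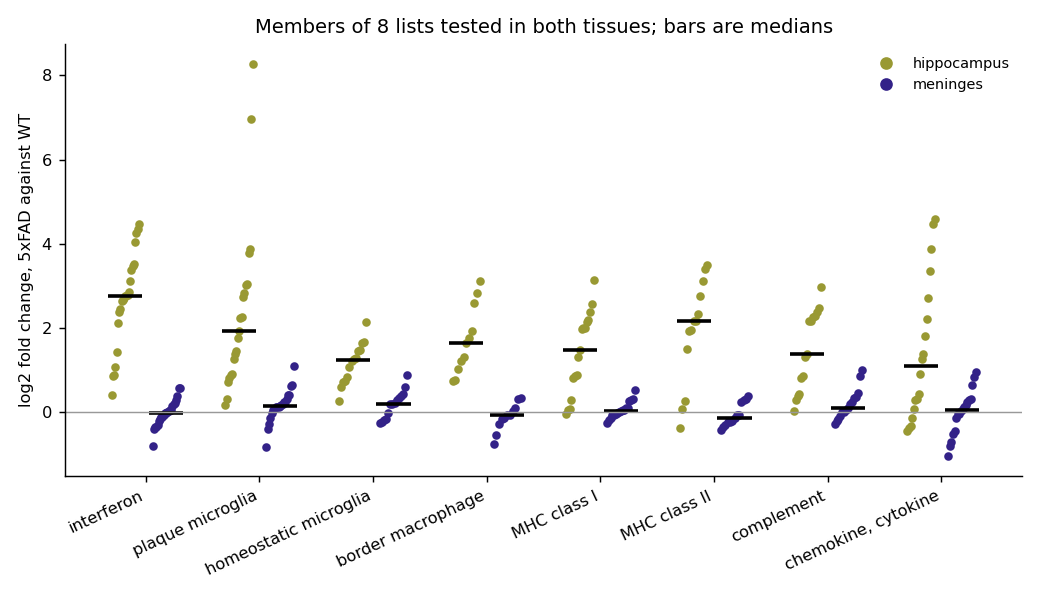
Log2 fold change of untreated 5xFAD against WT mice for each member of 8 lists tested in both tissues, in HPC (olive) and in meninges (dark blue), with medians as bars. The medians in HPC lie between 1.09 and 2.76 and those in meninges between −0.14 and 0.20.

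Other immune lists were compared in the same way. Of 19 genes of MHC class I presentation, which shows peptides to CD8 T cells, 17 were tested in both tissues and 8 had a lower effect in meninges, where the list median was 0.04. H2-K1, a class I heavy chain gene, was at 222, 279, 222 and 339.5 in WT and 236, 288 and 328 in 5xFAD meninges, all above the 5xFAD HPC mean of 72.6, with a difference of −1.92 (standard error 0.37, adjusted p = 0.00565). For H2-D1 the difference was −2.43 (standard error 0.46, adjusted p = 0.00484). Of 13 MHC class II genes tested in both, 4 had a lower effect in meninges, among them the protease gene Ctss with a difference of −2.32 (standard error 0.39, adjusted p = 0.0018). Of 15 complement genes, 5 did, and C1qa, a chain of the first complement component, was at 324, 377, 193 and 393 in WT and 238, 320.0 and 239 in 5xFAD meninges, with a difference of −2.57 (standard error 0.43, adjusted p = 0.00164). C3ar1 was among them although it was higher in all 5xFAD meninges, since its rise in HPC, 2.97 on the log2 scale, was larger. Of 11 border macrophage genes, 6 had a lower effect, including the lysosomal gene Cd68 (−3.05) and Cd14 (−3.60), and of 18 chemokine and cytokine genes 5, including Ccl5 (−3.27). Of 14 homeostatic microglia genes, 5 had a lower effect in meninges. These counts depended on single meninges mice, and no HPC mouse was left out. Without 5xFAD replicate 1 they were 3 for MHC class I, 2 for MHC class II, 2 for border macrophage and 3 for homeostatic microglia genes. The class I count was 5 without 5xFAD replicate 2, and the class II count was 7 without WT replicate 3 and 8 with DESeq2 or with the 15 WT and untreated 5xFAD samples fitted alone. With a spread for each tissue the counts were 5 for class I, 2 for class II, 3 for complement, 2 for border macrophage, 3 for chemokine and cytokine and 3 for homeostatic microglia genes.

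Genes outside the immune lists differed as well. Ptgds was lower in all 5xFAD meninges without passing the test and rose in HPC, with a difference of −2.26 (standard error 0.51, adjusted p = 0.0189). Ppp1r1b and Aldh1l1, both lower in all 5xFAD meninges by normalized counts, had differences of −1.39 (standard error 0.29, adjusted p = 0.00925) and −1.26 (standard error 0.24, adjusted p = 0.00484). The mitochondrial uncoupling gene Ucp2 had a difference of −2.10 (standard error 0.34, adjusted p = 0.00147). Of the lymphatic, VEGF and junction lists, Pdpn (−1.01), Nckap1l (−1.38) and the junction gene F11r (−1.68) had a lower effect in meninges. Nckap1l is a gene of blood cells, listed here for its part in VEGF signaling, and not a marker of vessels. The difference of Pdpn lay at the 2-fold limit, which it missed under 12 of the alternatives.

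The effect was higher in meninges for 6 genes. They were Lifr, the receptor for leukemia inhibitory factor, the zinc finger genes Zfp943, Prdm10 and Zfp975, the protocadherin gene Pcdhga1 and Dock4, an activator of Rac GTPases. Lifr was at 8.83, 5.77, 7.44 and 5.60 in WT and 9.12, 9.92 and 9.38 in 5xFAD meninges, with a log2 fold change of 0.55 in meninges and −0.48 in HPC and a difference of 1.01 (standard error 0.21, adjusted p = 0.00925). Pcdhga1 was at 0.82, 0.36, 0.95 and 0.19 against 2.58, 1.63 and 1.92, a difference of 2.29 (standard error 0.54, adjusted p = 0.0271). Zfp943 was at 5.05, 4.39, 4.75 and 3.30 against 8.96, 7.27 and 7.43, a difference of 1.14 (standard error 0.24, adjusted p = 0.00925). Pcdhga1 shares exons with other genes of its cluster and Zfp943 has close relatives, so reads can be shared. Pcdhga1 was below an FPKM of 1 in all WT meninges and passed the filter on low values only through the 5xFAD mice, so its groups had to differ there, and Zfp975 passed it through the 3 5xFAD mice and 1 WT mouse. For Lifr and Zfp943 the lowest 5xFAD mouse was above the highest WT mouse in meninges. The differences of Prdm10, Zfp975 and Dock4 were 1.24, 1.85 and 1.32. With a spread for each tissue, 1 gene was left that passed in this direction, Lifr.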

How the data were processed

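RNA was extracted from the meninges of single mice, made into Smart-seq2 libraries and sequenced. The authors deposited 2 tables with an expected count and an FPKM value per gene and sample. The one that holds meninges and HPC was tested, and the other, of lymphatic endothelial cells, gave only gene symbols. The study's methods describe fastp trimming and RSEM quantification, while the submitters' processing notes name Trimmomatic, HISAT2, StringTie, DESeq2 and the build mm10. Which of these made the deposited values was not settled here. Expected counts were rounded to whole numbers, and genes reaching an FPKM of 1 in 3 or more of the 7 samples were kept.

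Groups came from the sample labels. edgeR's quasi-likelihood test (4.0.16, R 4.3.3) was fitted with TMM scaling over the 10 meninges samples, and the difference from HPC over 22 samples. A gene was called at an adjusted p value (Benjamini-Hochberg) under 0.05 with a fold change of 2 or more. DESeq2 (1.42.0), limma (3.58.1), other scaling and filters, and leaving out each mouse were alternatives. Gene positions are from GENCODE vM21 on GRCm38.

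Named genes were the 20 with the smallest p values whose groups did not overlap, leaving out provisional symbols, up to 4 per list by p value with up to 4 defining markers, called list members and genes the study names. The 42 lists and these choices were made with earlier results of these data known. Some genes that this rule names are not reported here.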

Additional observations from a re-analysis of the deposited data

Results flagged for a closer look

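Among sets of 4 WT values, 159 were examined for 1 mouse far from the others, and 10 passed Dixon's 95% critical value for 4 samples, where chance gives about 1 in 20. WT replicate 1 was the distant mouse for 7 of them. It had the highest FPKM of the lymphatic growth factor gene Vegfc (3.37), the synaptic gene Syn1 (29.2), the neuronal hydrolase gene Uchl1 (60.0) and the WNT inhibitor gene Wif1 (1.53). It had the lowest FPKM of Ttr (15349) and the lowest sum of the choroid plexus list (18402.9), and it was apart on the proliferation list (165.3). WT replicate 3 was apart for Cyyr1 (4.27) and for the pineal list (2230.9), and WT replicate 2 for the complex I gene Ndufs3 (171.9).

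The 5xFAD effect differed between meninges and HPC for 237 genes by the test of the difference, and for the 35 genes named here the values are differences on the log2 scale, meninges minus HPC. Among plaque microglia genes they were −7.62 for Cst7, −6.53 for Clec7a, −3.34 for Trem2, −2.67 for Tyrobp and −2.21 for Ctsd. Among interferon-stimulated genes they were −3.40 for Oasl2, −3.88 for Irf7, −5.24 for Cxcl10, −3.06 for Bst2, −3.04 for Ifit1, −2.76 for Ifit3, −4.43 for Ifi27l2a and −2.50 for Ifitm3. For antigen presentation, complement and macrophage genes they were −1.92 for H2-K1, −2.43 for H2-D1, −2.32 for Ctss, −2.57 for C1qa, −2.13 for C3ar1, −3.05 for Cd68, −3.60 for Cd14 and −3.27 for Ccl5. For other genes they were −1.17 for Thy1, −2.26 for Ptgds, −1.39 for Ppp1r1b, −1.26 for Aldh1l1, −1.01 for Pdpn, −1.38 for Nckap1l, −1.68 for F11r and −2.10 for Ucp2. In the other direction they were 1.01 for Lifr, 1.14 for Zfp943, 1.24 for Prdm10, 1.85 for Zfp975, 2.29 for Pcdhga1 and 1.32 for Dock4.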

How the results depend on the processing

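In meninges the count of called genes was 0 under every alternative run except DESeq2 on the 7 mice alone, with and without a filter on low values (1 gene each). It was 0 to 0 with each mouse left out. The number with an unadjusted p value below 0.05 ran from 420 to 786 with each mouse left out. Of 2071 values of single genes under an alternative, 5 changed sign with a shift of at least the standard error, and 2 passed the test. Shifts that kept the sign were not counted, whatever their size. The difference between the tissues depended more on the choices. From 237 genes it went to 143 (6 higher, 137 lower) with a mean FPKM of at least 5, to 406 (26 higher, 380 lower) with DESeq2 and to 128 with limma-voom and a spread per tissue, which was added after seeing the data. With each WT or untreated 5xFAD meninges mouse left out it ran from 129 (without 5xFAD replicate 1) to 342 (without WT replicate 3). No HPC mouse was left out, so the dependence on single HPC mice was not tested. Of 485 single-gene values, 40 lost the call and none changed sign. Whether the replicate numbers pair the samples could not be settled from so few values. Correlations of deviations from the group means were −0.33, 0.16 and −0.06 for same-numbered samples and ran from −0.29 to 0.35 for other pairs. With a replicate block there were 0 called genes in meninges, 744 with an unadjusted p value below 0.05, and 178 for the difference. The number of mice and the spread between them limit what could be called in meninges.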

Other observations

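Several stress-responsive and rhythmic genes not described above were lower in value in the 5xFAD meninges, with 0 called. Dnajb1, a co-chaperone of the heat shock response, had FPKM values of 34.6, 25.4, 22.4 and 22.6 in WT and 15.5, 16.9 and 15.8 in 5xFAD mice, a log2 fold change of −0.70 (95% interval −1.17 to −0.23), and the groups did not overlap. The clock repressor gene Cry2 was at 21.5, 12.4, 24 and 19.9 against 11.7, 11.2 and 14.6, and the clock gene Ciart at 14.4, 8.34, 13.7 and 17 against 3.58, 3.68 and 12.4, where 5xFAD replicate 4 was inside the WT range for both. Ier3, an immediate early gene, was at 50.6, 39.2, 44.8 and 47 against 19.1, 31.1 and 33.3, without overlap, while Fos, the transcription factor gene of the same list, leaned the other way, at 32.5, 34.5, 32.7 and 43.8 against 38.7, 64.6 and 62.4. The cyclin-dependent kinase inhibitor gene Cdkn1a, which glucocorticoids raise, was at 143, 48.5, 88.5 and 160.5 against 31.6, 77.8 and 57.8, and WT replicate 2 was within the 5xFAD range. Below 0 were 15 of 20 heat shock genes (11 to 18 with each mouse left out, fewest without 5xFAD replicate 4) and 15 of 22 clock genes (13 to 17). The lists of Ier3 and Cdkn1a leaned less. Immediate early genes had 12 above and 15 below 0, and glucocorticoid-responsive genes 9 above and 13 below. Without 5xFAD replicate 1 these were 17 above and 10 below, and 13 above and 9 below.

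Dgat2, an enzyme gene of triglyceride synthesis, was at 16.8, 10.5, 12 and 8.81 in WT and 6.07, 6.46 and 8.30 in 5xFAD mice, without overlap. Among microglia genes that border macrophages also express, Gpr34 was at 2.20, 4.30, 2.03 and 3.82 against 4.51, 5.05 and 7.48, a log2 fold change of 0.88 (95% interval 0.13 to 1.62), and the highest WT mouse was close to the lowest 5xFAD mouse. Igf1, a growth factor gene, was at 64.1, 91.6, 58.6 and 64.8 against 127, 80.6 and 77.8, with WT replicate 2 inside the 5xFAD range.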
